A study of Mus musculus with 4 samples.

Results

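The mitochondrial ribosomal protein genes were taken as all non-control probes whose gene name in the array design begins with Mrpl (large subunit) or Mrps (small subunit) followed by a digit. This rule uses names and no measured value. It found 75 genes, 46 Mrpl and 29 Mrps, with 125 probes, among 28482 gene names and 41174 probes on the array. All 75 were among the 13062 genes that were measured, meaning genes with a probe that cleared background on the 2 arrays of either genotype.

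RNA came from CD4+CD8+ double-positive (DP) thymocytes, immature T cells bearing both CD4 and CD8, sorted from mice aged 6 to 12 weeks that had received no treatment. USP8ff_CD4Cre mice carried loxP-flanked Usp8 alleles and Cre driven by Cd4 regulatory sequences, which act from the DP stage onward. USP8ff mice carried the loxP-flanked alleles without Cre and were sex-matched littermates. Each genotype had 2 samples, each a pool of 2 mice, 8 mice in all, hybridised to 4 one-colour arrays. Mice with Cre and unflanked Usp8 alleles were not among the groups, so effects of Cre itself and of the deletion cannot be told apart.

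The mitochondrial ribosome is built from rRNAs encoded in mitochondrial DNA and from proteins that are all encoded in the nucleus, made in the cytosol and imported. It translates the mRNAs of mitochondrial DNA, which encode core subunits of the respiratory chain and of ATP synthase. In T cells, expansion of this machinery is best known from activation and proliferation, and thymocytes pass through a burst of proliferation before most DP cells become quiescent.

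The rule did not use promoter arrangement, in which a minority of the members had a trait in common. RefSeq promoter windows on GRCm38.p6, running from 250 bases before to 50 bases after each start site, were matched to 66 of the 75 members. Of these, 22 (33.3%) had the start site of a divergent gene on the other strand within 500 bases, compared with 18.5% of 8718 measured genes and 10.9% of all 27025 genes with a window. The stretches between such paired start sites are printed for the 2 members with the smallest unadjusted p, Mrps18c and Mrpl14, for the 1 pair in which both genes are members, Mrps11 with Mrpl46, and for the decoding-site gene Mrps12. Each is written 5′ to 3′ on the strand of the named member and ends next to its start site. Capitals mark a match to the ETS motif searched, and matches not wholly inside a stretch are not marked.
Mrps18c, chr5:100798601-100798758, plus strand: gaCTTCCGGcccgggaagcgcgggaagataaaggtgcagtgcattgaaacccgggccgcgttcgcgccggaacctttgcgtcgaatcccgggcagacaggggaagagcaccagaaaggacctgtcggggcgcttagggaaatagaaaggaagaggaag
Mrpl14, chr17:45686219-45686348, plus strand: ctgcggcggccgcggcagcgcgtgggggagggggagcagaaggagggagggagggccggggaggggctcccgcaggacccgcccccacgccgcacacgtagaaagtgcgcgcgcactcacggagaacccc
Mrps11, chr7:78783090-78783130, plus strand: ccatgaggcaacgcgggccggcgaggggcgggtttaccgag
Mrps12, chr7:28741822-28741967, minus strand: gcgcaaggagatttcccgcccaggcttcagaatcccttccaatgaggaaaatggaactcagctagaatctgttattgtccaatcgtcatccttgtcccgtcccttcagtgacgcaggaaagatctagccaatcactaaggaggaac
The partner start sites are those of Helq (159 bases from Mrps18c), Tmem63b (131 bases from Mrpl14), Mrpl46 (42 bases from Mrps11) and Sars2 (147 bases from Mrps12). These stretches were 60.8%, 76.9%, 73.2% and 49.3% G and C.

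Motifs of factors known for nuclear genes of mitochondrial function were searched on both strands of the 66 windows. The ETS core CCGGAAG, bound by GABP among others, was in 24 members (36.4%), in 21.6% of measured genes and in 9.93% of all genes with a window. It was in 13 of 40 Mrpl windows (32.5%) and 11 of 26 Mrps windows (42.3%). The YY1 motif, AAGATGG followed directly by CGGC, was in 5 members (7.58%) and in 2.01% of measured genes. The NRF1 palindrome, GCGC, NN and GCGC in a row, was in 13 members (19.7%) and in 16.1% of measured genes. The E-box CACGTG was in 5 members (7.58%) and in 12.0% of measured genes. Shares of members thus exceeded those of measured genes for ETS and YY1, were similar for NRF1 and smaller for the E-box, as a description of letters in these windows. Some windows held matches not wholly inside the stretches printed above. These were the ETS core for Mrps12, the NRF1 palindrome for Mrpl14, the YY1 motif for Mrps11 and the E-box for Mrps18c.

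The 4 arrays lay on 1 slide, and 45.0% to 48.9% of probes were well above background on each. Correlations across the measured genes were 0.991 to 0.996 between arrays, and genes are not independent replicates. Signals are log2 values relative to the 75th percentile of the array's non-control spots. The Usp8 probe that was well above background (mm9, chromosome 2, 126584363 to 126584422) had -1.03 and -1.23 in USP8ff_CD4Cre pools, against -0.23 and -0.40 in USP8ff pools. Both USP8ff_CD4Cre pools lay below both USP8ff pools, at 56.9% of the USP8ff signal. The sources used here do not say whether this probe lies in the deleted part of Usp8. All 10 DP markers were well above background on all 4 arrays, and their summed linear signal was 1746 and 1767 in USP8ff_CD4Cre, against 1660 and 1736 in USP8ff, in units of the 75th percentile. Their median log2 difference was -0.06, with 7 of 10 negative. In 4 of the 10, both USP8ff_CD4Cre pools lay below both USP8ff pools, compared with 16.3% of measured genes. These were Rag2 (-0.33 ± 0.13, adjusted p = 0.671 in limma), Cd1d1 (-0.25 ± 0.12), Rag1 (-0.19 ± 0.11) and Cd4 (-0.06 ± 0.10). Both lay above in 2, compared with 24.3% of measured genes. These were the brightest of the list, Dntt (0.10 ± 0.10) and Cd8b1 (0.09 ± 0.11).

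The mitochondrial ribosomal protein genes were detected throughout. Of their 125 probes, 114 were kept and 112 were well above background on all 4 arrays. The probe standing for the gene, the kept probe with the highest mean, was well above background on all 4 arrays for all 75 members, compared with 95.9% of measured genes. No member's spot was saturated. Signals lay above the 75th percentile for 73 members (97.3%), compared with 61.2% of measured genes, and the exceptions were 2 Mrps genes. Mean signals over the arrays spanned 0.60 (Mrpl47) to 5.50 (Mrpl28) among Mrpl genes, with a median of 2.87. Among Mrps genes they spanned -2.49 (Mrps18b) to 5.40 (Mrps16), with a median of 2.27. Different probes hybridise with different efficiency, so these signals do not order the genes by transcript abundance, and the Mrpl and Mrps medians cannot be compared as amounts of RNA. In bulk RNA, fewer cells of a type and less RNA per cell cannot be told apart either.

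Between genotypes, most mitochondrial ribosomal protein genes had slightly larger signals in USP8ff_CD4Cre thymocytes, and none passed the test. The median log2 difference, USP8ff_CD4Cre minus USP8ff, was 0.11 over the 75 members (a 1.08-fold ratio), compared with 0.02 over all measured genes. It was 0.11 over 46 Mrpl genes and 0.12 over 29 Mrps genes. The difference was positive in 66 members, 40 of 46 Mrpl genes (87.0%) and 26 of 29 Mrps genes (89.7%), where 54.8% of measured genes were positive. The largest was 0.28 (Mrps18c, 1.21-fold) and the lowest -0.16 (Mrpl10, 0.89-fold). The differences were thus small throughout, and the median did not rest on a few large ones.

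In limma, 0 of 13062 genes passed an adjusted p of 0.05 (0%), and the smallest adjusted p of any gene was 0.292. At an unadjusted p under 0.05, 2 members were higher in USP8ff_CD4Cre and 0 were lower, where 3.97% of measured genes were higher and 3.46% lower. The 2 of 75 are a share below that background. Both USP8ff_CD4Cre arrays lay above both USP8ff arrays in 35 members (22 Mrpl and 13 Mrps), which is 46.7%, compared with 24.3% of measured genes. Both lay below in 2 members, Mrpl10 and Mrpl24, compared with 16.3% of measured genes. The groups overlapped in the other 38. The number of arrays limits the precision, and the members' intervals were somewhat narrower than those of measured genes. The 95% intervals of all 75 members lay within a 2-fold difference in either direction (93.7% of measured genes), and those of 70 members within 1.5-fold (71.2% of measured genes). The median SE was 0.119 for members and 0.127 for measured genes. The members' extreme bounds were -0.69 (Mrpl12) and 0.75 (Mrpl23).

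**Figure D1:**
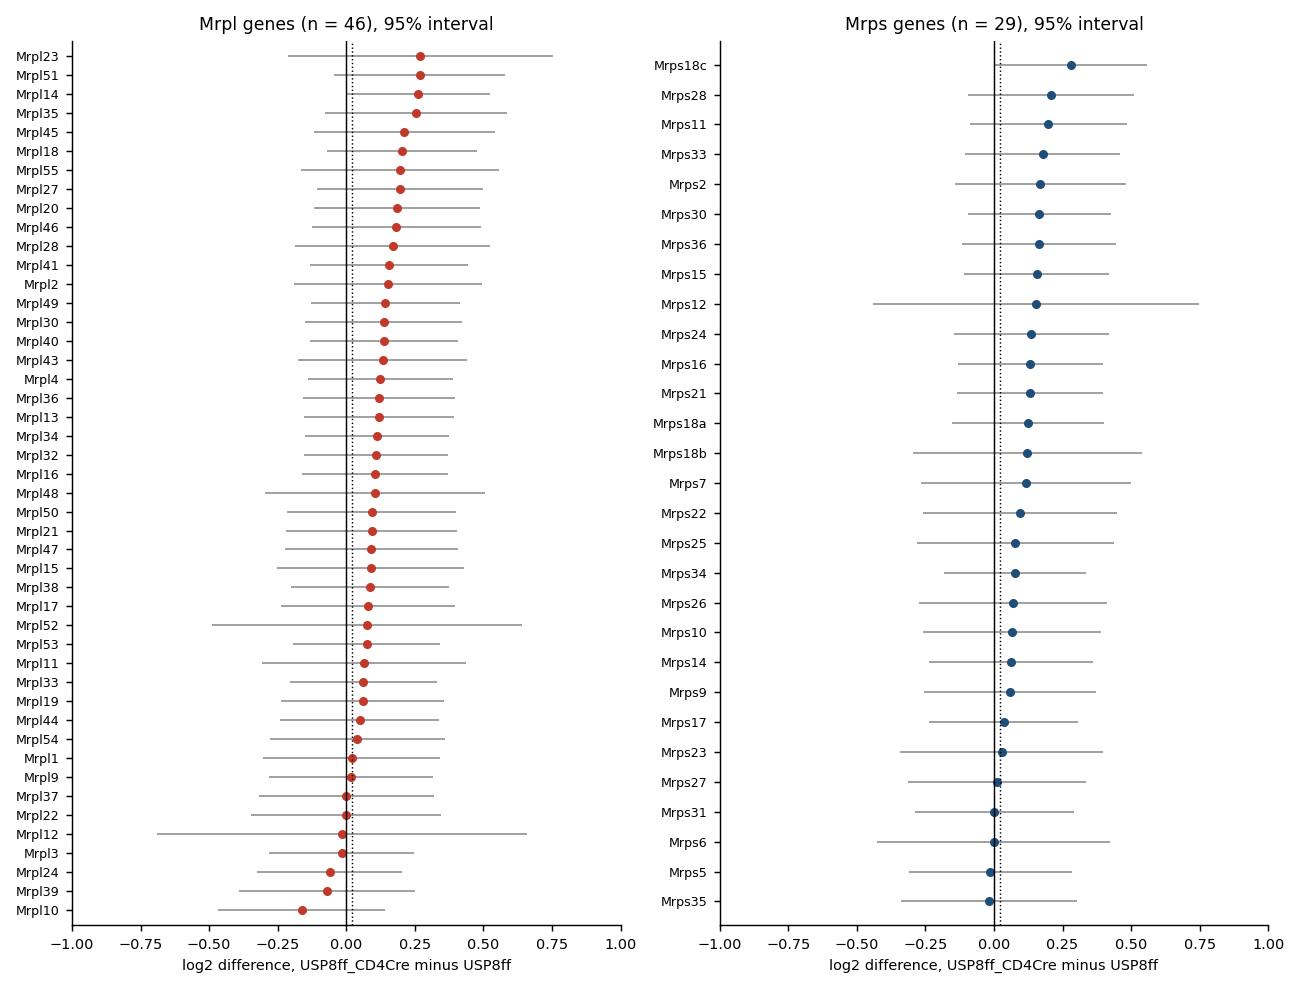
Log2 difference of each member between USP8ff_CD4Cre and USP8ff (points) with its 95% interval from limma (lines), Mrpl genes on the left and Mrps genes on the right, sorted by size. The solid line marks 0 and the dotted line the median of all measured genes (0.02). Points lie between -0.16 (Mrpl10) and 0.28 (Mrps18c), and most lie right of both lines.

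Large and small subunit genes had similar median differences. The Mrpl median difference minus the Mrps median difference was -0.011. Within each array, each gene's signal was set against its own mean over the 4 arrays, and the Mrpl median was then set against the Mrps median. That gap was -0.014 and -0.004 on the USP8ff_CD4Cre arrays, against -0.004 and 0.007 on the USP8ff arrays. The SD of this gap between pools of a genotype was 0.0075, of the same size as the gaps themselves. The sign of the subunit gap was positive with quantile normalization (0.00096) and with normexp background correction (0.010).

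The members' shift was carried more by one pool than by the other. The median of the members' centred signals was 0.013 and 0.093 on the USP8ff_CD4Cre arrays, against -0.041 and -0.063 on the USP8ff arrays. Over all measured genes, the same median was 0.012 and 0.011 in USP8ff_CD4Cre, against -0.021 and -0.003 in USP8ff. USP8ff_CD4Cre 2 held the highest signal for 51 members and the lowest for 0. USP8ff_CD4Cre 1 held the highest for 8 and the lowest for 14. USP8ff 1 held the highest for 7 and the lowest for 25, and USP8ff 2 the highest for 9 and the lowest for 36. Among measured genes, USP8ff_CD4Cre 2 held the highest signal in 31.7%. Without USP8ff_CD4Cre 2, the members' median difference was 0.069 and 52 were positive. Without USP8ff_CD4Cre 1, the median was 0.145 and 68 were positive.

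**Figure D2:**
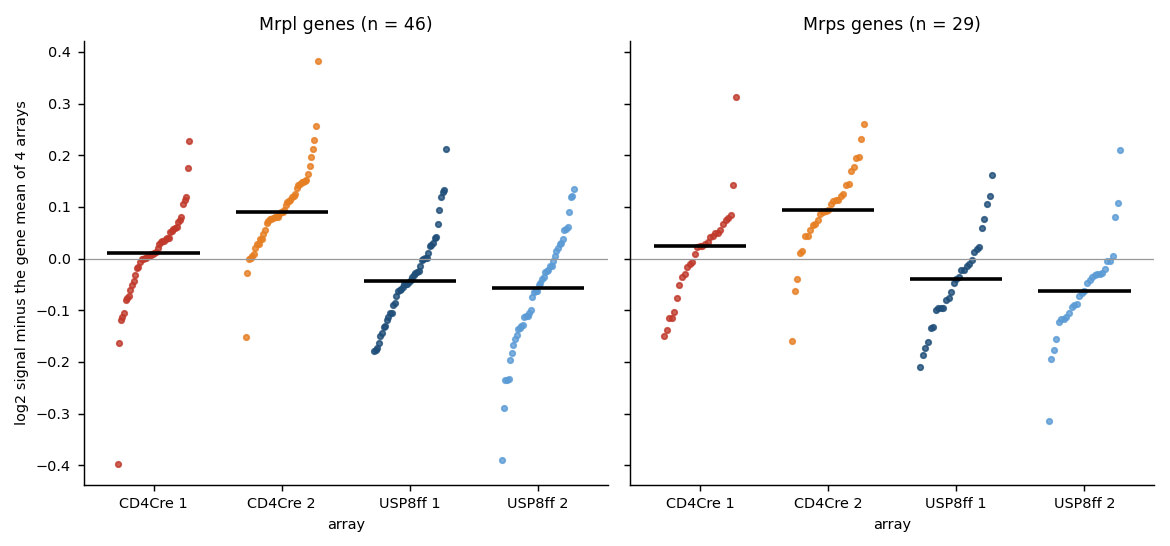
Log2 signal of each member minus its own mean over the 4 arrays (points, sorted within each array), for 46 Mrpl genes on the left and 29 Mrps genes on the right, with the median as a bar. The medians run in the same order in both panels, with USP8ff_CD4Cre 2 highest (0.090 for Mrpl, 0.094 for Mrps) and USP8ff 2 lowest (-0.057 and -0.063).

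Among the large subunit genes, the 5 most positive differences were those of Mrpl23, Mrpl51, Mrpl14, Mrpl35 and Mrpl45. Mrpl14 (mm9, chromosome 17, 45835317 to 45835376), a conserved protein of the face that meets the small subunit, had 4.96 and 4.99 in USP8ff_CD4Cre, against 4.71 and 4.72 in USP8ff. Its pools agreed within 0.04, the groups did not overlap, and the difference was 0.26 ± 0.10 (SE), with an unadjusted p of 0.049 and an adjusted p of 0.671 in limma. Mrpl51 (chromosome 6, 125143362 to 125143421), a protein specific to mitochondrial ribosomes, had 3.62 and 3.81 in USP8ff_CD4Cre, against 3.50 and 3.40 in USP8ff. Its groups did not overlap either, with a difference of 0.27 ± 0.12.

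Mrpl23 (chromosome 7, 149726578 to 149726637), which in bacteria lies at the mouth of the tunnel where the new chain leaves, had 5.01 and 5.04 in USP8ff_CD4Cre, against 5.01 and 4.50 in USP8ff. Here a single pool, USP8ff 2, was low, and USP8ff 1 matched the USP8ff_CD4Cre pools. The difference of 0.27 ± 0.19 was 0.016 without USP8ff 2. Mrpl35 (chromosome 6, 71766082 to 71766141) had 2.70 and 2.96 in USP8ff_CD4Cre, against 2.56 and 2.59 in USP8ff, without overlap. Mrpl45 (chromosome 11, 97190353 to 97190412), which lies beside the tunnel exit and helps to hold the ribosome at the inner membrane, had 3.02 and 3.24 in USP8ff_CD4Cre, against 2.85 and 2.99 in USP8ff.

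At the other end stood Mrpl10, Mrpl39 and Mrpl24. Mrpl10 (chromosome 11, 96910057 to 96910116) belongs to the stalk, the mobile arm that recruits translation factors. It had 1.63 and 1.80 in USP8ff_CD4Cre, against 1.82 and 1.93 in USP8ff, a difference of -0.16 ± 0.12 (adjusted p = 0.755). The gap between the groups was smaller than that between the pools of either genotype. Mrpl24 (chromosome 3, 87727137 to 87727196) had 3.53 and 3.54 in USP8ff_CD4Cre, against 3.56 and 3.62 in USP8ff. Mrpl39 (chromosome 16, 84718622 to 84724086) overlapped, with a difference of -0.07 ± 0.13.

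The groups overlapped in the other stalk genes. Mrpl11 (chromosome 19, 4964880 to 4964939) had 3.95 and 3.89 in USP8ff_CD4Cre, against 4.02 and 3.69 in USP8ff, a difference of 0.06 ± 0.15. Mrpl12 (chromosome 11, 120349740 to 120349799), whose protein forms the flexible end of the stalk, had 3.07 and 3.85 in USP8ff_CD4Cre, against 3.48 and 3.48 in USP8ff. The USP8ff_CD4Cre pools thus lay on either side of the USP8ff pools, a range of 0.78 over the arrays that no other member reached, with a difference of -0.02 ± 0.26.

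Among the small subunit genes, the 5 most positive differences were those of Mrps18c, Mrps28, Mrps11, Mrps33 and Mrps2. Mrps28 (chromosome 3, 8802222 to 8802281) had 4.30 and 4.22 in USP8ff_CD4Cre, against 4.14 and 3.96 in USP8ff. Mrps11 (chromosome 7, 85933622 to 85935544), whose protein sits on the platform of the small subunit, had 1.31 and 1.45 in USP8ff_CD4Cre, against 1.21 and 1.16 in USP8ff. Mrps33 (chromosome 6, 39752300 to 39752359), a protein specific to mitochondrial ribosomes, had 5.29 and 5.33 in USP8ff_CD4Cre, against 5.20 and 5.07 in USP8ff. None of the 3 overlapped between genotypes, and their adjusted p-values in limma were 0.70 to 0.72. Mrps2 (chromosome 2, 28326283 to 28326342) had 0.59 and 0.71 in USP8ff_CD4Cre, against 0.40 and 0.57 in USP8ff.

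The 3 lowest small subunit differences, those of Mrps35, Mrps5 and Mrps6, were within 0.02 of 0. Mrps6 (chromosome 16, 92112223 to 92112282) had 3.21 and 3.24 in USP8ff_CD4Cre, against 3.02 and 3.44 in USP8ff, so that its USP8ff pools lay on either side of the USP8ff_CD4Cre pools. Mrps35 (chromosome 6, 147009999 to 147019119) and Mrps5 (chromosome 2, 127429365 to 127429424) overlapped too, with differences of -0.02 ± 0.13 and -0.01 ± 0.12. Mrps12 (chromosome 7, 29524837 to 29524896), a protein of the decoding site, had 2.75 and 2.28 in USP8ff_CD4Cre, against 2.60 and 2.12 in USP8ff. Both pools numbered 1 lay above both pools numbered 2 in this gene. The same held in Mrpl52, with 4.54 and 4.16 in USP8ff_CD4Cre, against 4.52 and 4.02 in USP8ff. That pattern was found in 6 members, and the opposite one in 15, compared with 17.9% and 19.0% of measured genes.

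The Mrps18 paralogs occupy different places in the ribosome although they share a name. Mrps18c (chromosome 5, 101233411 to 101233470) had 2.73 and 2.84 in USP8ff_CD4Cre, against 2.48 and 2.53 in USP8ff. Its difference of 0.28 ± 0.11 had an unadjusted p of 0.049 and an adjusted p of 0.671 in limma, and its second kept probe had a difference of 0.24. Mrps18a (chromosome 17, 46265584 to 46265643), whose protein structures place in the large subunit, had 1.66 and 1.76 in USP8ff_CD4Cre, against 1.55 and 1.62 in USP8ff. Mrps18b (chromosome 17, 36051313 to 36051461) had -2.63 and -2.23 in USP8ff_CD4Cre, against -2.50 and -2.60 in USP8ff. Its groups overlapped, with a difference of 0.12 ± 0.16. The other Mrps18b probes (chromosome 17, 36048127 to 36048186 and 36047384 to 36047443) were not well above background on any array, and the file places them on the strand opposite the gene.

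The Mrps30 and Mrps36 names also differ from the place of their proteins. Mrps30 (chromosome 13, 119169203 to 119169262), found in the large subunit by structures, had 3.05 and 3.07 in USP8ff_CD4Cre, against 2.88 and 2.91 in USP8ff. Its pools differed by less than 0.04 within each genotype, and the difference was 0.17 ± 0.10 (adjusted p = 0.724). Mrps36 (chromosome 13, 101505943 to 101506002), whose protein belongs to the 2-oxoglutarate dehydrogenase complex, had 2.01 and 2.09 in USP8ff_CD4Cre, against 1.84 and 1.94 in USP8ff. With Mrps18a and Mrps30 counted in the large subunit and Mrps36 left out, the median differences were 0.11 for the large subunit and 0.09 for the small subunit.

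**Figure D3:**
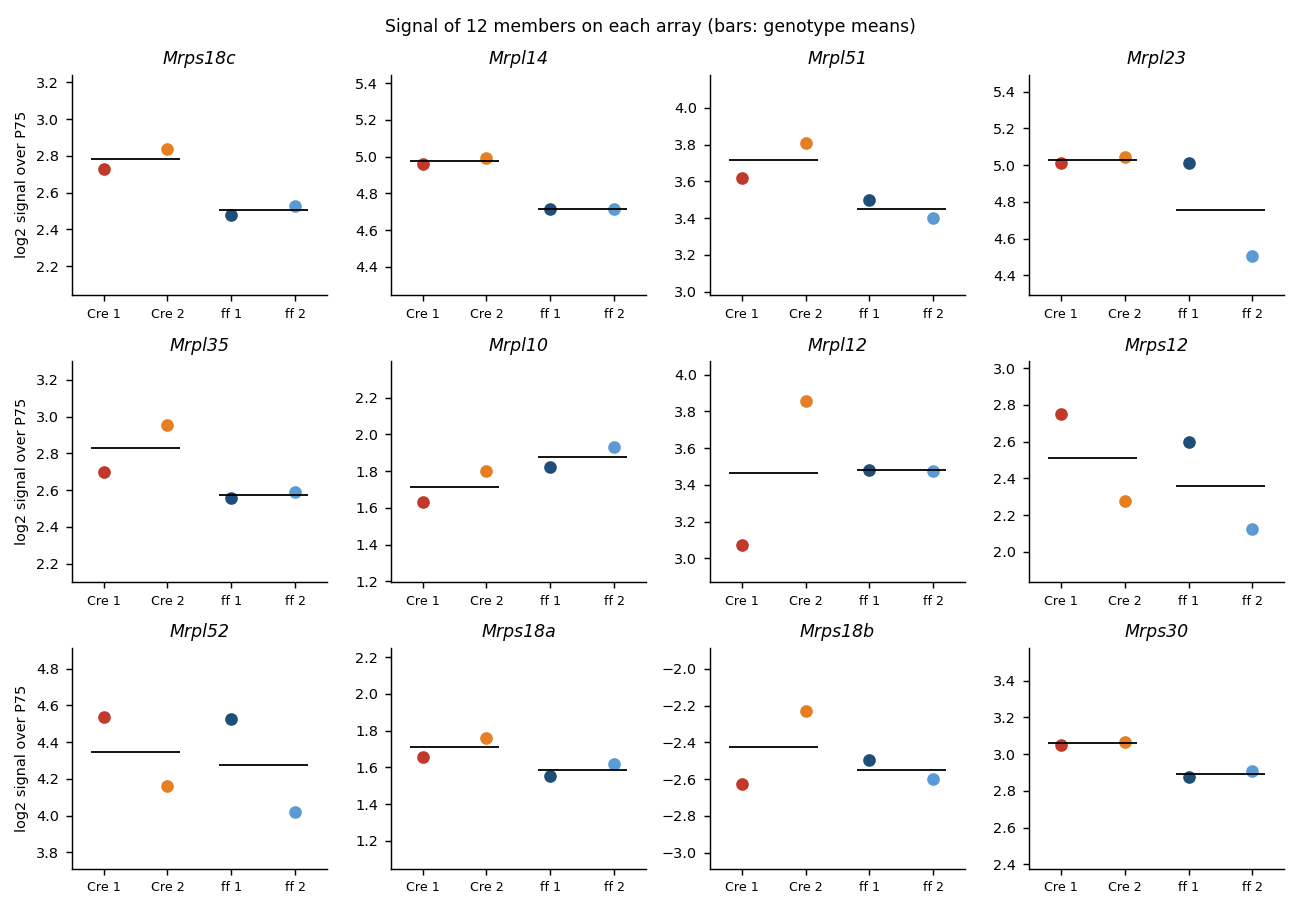
Log2 signal relative to the 75th percentile (P75) of 12 members in USP8ff_CD4Cre pools (Cre 1 and Cre 2) and USP8ff pools (ff 1 and ff 2), with bars at the genotype means. Every panel spans the same range of 1.2 log2 units. Mrps18c and Mrpl14 show separate genotypes, Mrpl23 rests on 1 USP8ff pool, Mrpl12 spreads within USP8ff_CD4Cre, and Mrps12 and Mrpl52 split by pool number.

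Several probes measured 28 of the members. All kept probes were positive in 16 of these genes, all were negative in 2 (Mrpl3 and Mrps6), and they differed in sign in 10. In most of the 10 the opposing differences were near 0, as in Mrpl44 (0.05, -0.01 and 0.01), Mrpl15 (0.09 and -0.001), Mrpl50 (0.09 and -0.001), Mrpl47 (0.09 and -0.03), Mrps9 (0.06, -0.01 and -0.03), Mrps26 (0.07 and -0.02) and Mrps33 (0.18, 0.11 and -0.01). Mrps25 disagreed most: its brighter probe (chromosome 6, 92124124 to 92124183) had 1.74 and 1.83 in USP8ff_CD4Cre, against 1.56 and 1.86 in USP8ff. Its dimmer probe (chromosome 6, 92120277 to 92120336) had -2.03 and -2.01 in USP8ff_CD4Cre, against -1.74 and -1.64 in USP8ff. The second Mrpl52 probe gave -0.15, and the dimmest of 4 Mrps5 probes gave 0.36 where the other 3 gave -0.01 to -0.02. Of all 114 kept member probes, 90 had a positive difference.

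Divergent partners were compared with their members. Of the 22 partners, 19 were measured, and 17 of those were no members themselves. Their median difference was 0.001, with 10 of 17 positive, where 54.8% of measured genes were positive. Their differences ran between -0.30 (Zfp661, partner of Mrps5) and 0.35 (Eme1, partner of Mrpl27). The members across from these 17 had a median of 0.14, with 16 positive. Helq, a DNA helicase gene, differed by -0.004 where Mrps18c across from it differed by 0.28, and Tmem63b differed by -0.005 where Mrpl14 differed by 0.26. Mrps18c and Mrpl14 were chosen for their small unadjusted p and the partners were not. That choice favours larger values in these 2 members, so the 2 pairs are no separate evidence of a gap. Whether paired genes change together was not tested. Sars2, the mitochondrial seryl-tRNA synthetase gene, differed by 0.17 where Mrps12 differed by 0.15. Mrpl46 had 1.76 and 1.87 in USP8ff_CD4Cre, against 1.54 and 1.72 in USP8ff, and its difference of 0.18 stood beside 0.20 for Mrps11, with which it shares the printed stretch. None of these genes passed the test.

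The motifs did not order the members' differences in a clear way. The 24 members with the ETS core had a median difference of 0.11 and the 42 without it 0.11. The 13 with the NRF1 palindrome had 0.08 and the 53 without it 0.12. The 5 with the YY1 motif had 0.12 and the 61 without it 0.11, and the 5 with the E-box had 0.15 and the 61 without it 0.11. The 22 members with a divergent partner had 0.14 and the 44 without one 0.09. These medians are descriptions, and the ranges with and without each feature overlapped.

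Other parts of the same pathway were read from lists of known genes, and 0 genes of any list passed an adjusted p of 0.05. The 7 mitoribosomal proteins with other names had a median difference of 0.11, with 6 positive (54.8% of measured genes). In 5 of the 7 both USP8ff_CD4Cre arrays lay above both USP8ff arrays (24.3% of measured genes). Among them Gadd45gip1, whose protein lies near the exit of the large subunit, had 3.927 and 3.995 in USP8ff_CD4Cre, against 3.636 and 3.704 in USP8ff. Its difference was 0.29 ± 0.11, with an adjusted p of 0.671 in limma. That value is from the brighter of its 2 kept probes, and the mean of both gave a smaller difference of 0.19. Mrpl58 (Ict1 in the array design), a peptidyl-tRNA hydrolase built into the large subunit, had 4.83 and 4.94 in USP8ff_CD4Cre, against 4.75 and 4.71 in USP8ff. Mrpl42, which the design lists as D10Ertd322e and the name rule therefore missed, differed by 0.29 in the brighter probe and 0.28 in the other, and was singled out after its values were seen.

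Genes that serve the ribosome without being part of it showed no common sign. Of 15 measured translation factors, 11 were positive and 4 negative, with a median of 0.07. The smallest unadjusted p-values in that list were those of Slirp (0.23 ± 0.11), which with LRPPRC stabilises mitochondrial mRNAs, and Tufm (0.22 ± 0.12), the elongation factor that brings aminoacyl-tRNA. Of 22 assembly and rRNA modification genes, 12 were positive and 10 negative, with a median of 0.01. In that list Mtg2, a GTPase of large subunit assembly, had 1.49 and 1.41 in USP8ff_CD4Cre, against 1.72 and 1.66 in USP8ff, and Mterfd1, which also acts in large subunit assembly, differed by -0.23 ± 0.12. Both lay lower in both USP8ff_CD4Cre pools than in both USP8ff pools, opposite in sign to most ribosomal proteins. They were named for the smallest unadjusted p of that list and do not stand for it. Over the 22 genes, both USP8ff_CD4Cre pools lay below in 4 and above in 5, compared with 16.3% and 24.3% of measured genes.

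Of 17 mitochondrial aminoacyl-tRNA synthetases, 10 were positive and 7 negative, with a median of 0.04. Lars2, the leucyl-tRNA synthetase gene, had 9.82 and 9.79 in USP8ff_CD4Cre, against 9.66 and 9.13 in USP8ff, and its difference of 0.41 was 0.15 without USP8ff 2 and 0.67 without USP8ff 1. Rars2, the arginyl-tRNA synthetase gene, had 0.16 and 0.16 in USP8ff_CD4Cre, against 0.57 and 0.24 in USP8ff. Its difference of -0.25 ± 0.15 was -0.08 without USP8ff 1 and -0.41 without USP8ff 2. Of 8 genes of mitochondrial DNA transcription and upkeep, 4 were positive and 4 negative, with a median of -0.01; Ssbp1, which binds single-stranded mitochondrial DNA, differed by -0.20 ± 0.11 and Tfam, which packages it, by 0.19 ± 0.12. Of 8 nuclear regulators of mitochondrial genes, 7 were positive, with a median of 0.16. Among these Pprc1, a coactivator, had 0.97 and 1.04 in USP8ff_CD4Cre, against 0.78 and 0.81 in USP8ff, and Nrf1 differed by 0.19 ± 0.12.

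The mRNAs that the mitochondrial ribosome translates come from mitochondrial DNA, and 4 of them had a probe named for the gene, well above background on all 4 arrays. COX2 had 8.55 and 8.30 in USP8ff_CD4Cre, against 8.43 and 8.44 in USP8ff. CYTB had 4.87 and 4.75 in USP8ff_CD4Cre, against 4.85 and 4.87 in USP8ff. ND4 and ATP6 differed by -0.09 and -0.03. The genotypes overlapped in COX2, ND4 and ATP6, and in CYTB as well.

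Medians of proliferation genes ordered the arrays in the same way as those of the members. Of 19 such genes, 19 had a positive difference, with a median of 0.50, and 9 were higher at an unadjusted p under 0.05, where 54.8% of measured genes were positive and 3.97% were higher at that p. Their centred median was 0.06 and 0.43 on the USP8ff_CD4Cre arrays, against -0.13 and -0.32 on the USP8ff arrays. Mki67, a marker of cycling cells, had 6.17 and 6.51 in USP8ff_CD4Cre, against 5.81 and 5.82 in USP8ff. Tyms, the thymidylate synthase gene, had 4.92 and 5.18 in USP8ff_CD4Cre, against 4.62 and 4.45 in USP8ff. The adjusted p in limma was 0.661 for both. Their part in the members' differences was not tested.

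**Figure D4:**
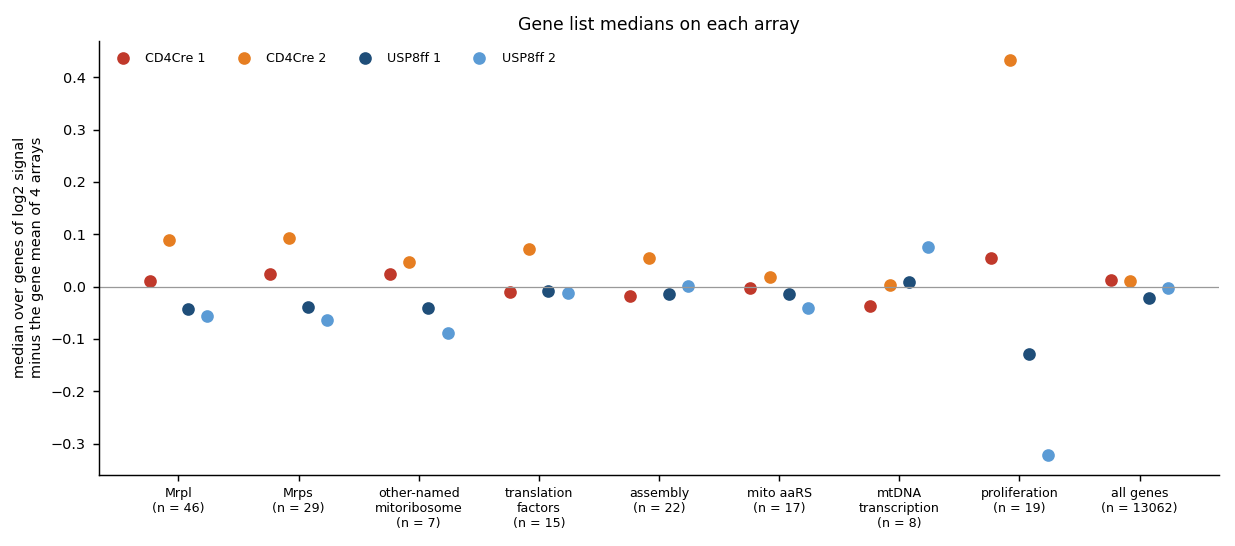
Median over the genes of each list of the log2 signal minus the gene's own mean over the 4 arrays, with 1 point for each array. Mrpl, Mrps, the mitoribosomal proteins with other names and the proliferation genes (0.43 on USP8ff_CD4Cre 2, -0.32 on USP8ff 2) share the order of the arrays, and so do the synthetases (mito aaRS) over a narrower span (0.018 on USP8ff_CD4Cre 2, -0.041 on USP8ff 2). The translation factor, assembly and mitochondrial DNA (mtDNA) lists do not.

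Markers of other cells were set beside these differences. Of 7 mature single-positive thymocyte markers, 6 were measured, with a median difference of -1.07, 5 of them negative. In 5 of the 6, both USP8ff_CD4Cre pools lay below both USP8ff pools, compared with 16.3% of measured genes. Both lay above in 1, Klf2, compared with 24.3% of measured genes. Il7r and Itgae (-2.04 ± 0.20) were well above background on both USP8ff arrays but on neither USP8ff_CD4Cre array (adjusted p = 0.292 in limma for each). These 2 were thus measured only through USP8ff, where they were higher. Klf2, a bright probe that makes up most of the list's sum, differed by 0.23 ± 0.12, and the summed linear signal was 102 and 113 in USP8ff_CD4Cre, against 92.6 and 99.1 in USP8ff. Of 8 macrophage and dendritic cell markers, 4 were measured, with a median difference of -0.64. Their sum was 1.19 and 1.49 in USP8ff_CD4Cre, against 2.11 and 2.40 in USP8ff, and Ctss made up most of that gap. In 2 of the 4, both USP8ff_CD4Cre pools lay below both USP8ff pools, compared with 16.3% of measured genes. Those 2 were Ctss (-1.96 ± 0.21) and Mpeg1 (-1.09 ± 0.23). The genotypes overlapped in Lyz2 (-0.19 ± 0.22) and Cd68 (-0.12 ± 0.13). Csf1r, Itgax, Adgre1 and Cd14 were not well above background on both arrays of either genotype. Of 7 NK and innate T cell markers 5 were measured (sum 3.94 and 5.29 in USP8ff_CD4Cre, against 4.28 and 4.37 in USP8ff), and Klrd1 and Ncr1 were not. Gzma made up most of that sum, with a difference of 0.42 ± 0.20, while the median difference of the 5 was -0.86. In 3 of the 5, both USP8ff_CD4Cre pools lay below both USP8ff pools, compared with 16.3% of measured genes. These were Nkg7 (-2.09 ± 0.18), Il2rb (-2.02 ± 0.34) and Prf1 (-0.86 ± 0.21), with adjusted p-values of 0.292, 0.639 and 0.661 in limma. Both lay above in the other 2, Gzma and Tbx21 (0.15 ± 0.10), compared with 24.3% of measured genes. Among USP8ff_CD4Cre arrays, Il2rb cleared background on 1 of 2, so it was measured only through USP8ff. Of 6 stromal markers 2 were measured (sum 0.264 and 0.307 in USP8ff_CD4Cre, against 0.344 and 0.354 in USP8ff), and Krt8, Foxn1, Col1a1 and Pdgfra were not. Epcam differed by -0.47 ± 0.13 and Krt5 by 0.22 ± 0.12. Krt5 cleared background on 1 of 2 USP8ff arrays, so it was measured only through USP8ff_CD4Cre, where it was higher. The part of these other cells in the members' differences was not tested either. In the authors' deposited table of changed probes, 0 of 78 belong to a mitochondrial ribosomal protein gene. Member probes are 125 of the 41174 on the array, a share so small that 0 of 78 says little about them.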

How the data were processed

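Per the labels' protocols, 500 ng of RNA from each pool was labelled with Cy3. Per the file headers, the arrays were read with Feature Extraction 10.7.3.1, and probe positions are on mm9. The deposited scanner files hold spot intensities, background-subtracted and not normalized between arrays. For 78 probes, a fold without sign and a p-value stand in the authors' deposited list of changed probes. A deposited table with 4 value columns whose names match no label was not used.

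The log2 processed signal was set against the 75th percentile of 43379 non-control spots on each array. Outlier spots were left out, which left 17 of 41174 probes without a value. A probe was kept if it cleared background (the scanner's flag) on the 2 arrays of either genotype (19038 probes), and the kept probe with the highest mean stood for its gene (13062 genes, 4418 with several kept probes). RefSeq names replaced those of the design by accession for 26690 probes, including 110 of the 125 member probes, none of which changed its symbol. The genotype contrast was fitted by lmFit and eBayes of limma 3.58.1 (R 4.3.3), with neither trend nor block and 2 residual degrees of freedom, and with Benjamini-Hochberg adjustment over all genes and a threshold of 0.05. The fit was tested on simulated data. The labels do not say how the pools were formed beyond the number of mice, so p-values measure the spread between pools.

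The members and lists were chosen with earlier results of these data known. Genes named were the 5 most positive and the 3 most negative members of each subunit, the stalk, decoding-site and misnamed members, members whose probes differ in sign, and the 2 genes of each list with the smallest unadjusted p. Partners of the printed stretches, Mrpl42 and the mitochondrially encoded probes joined them later, with values known. The alternatives tried were median and quantile scaling, normexp (offset 50), other probe filters, the mean of probes, every probe apart, subunits by structure, a replicate block, an eBayes trend and each array left out in turn. Promoter windows are RefSeq's on GRCm38.p6, without conversion to mm9. Plots used Python 3.11.15 with matplotlib 3.10.9. Marker lists of B cells and erythroid cells are not reported here.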

Additional observations from a re-analysis of the deposited data

How the results depend on the processing

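In limma 0 genes passed the adjusted threshold under every alternative, where 419 to 1338 genes had an unadjusted p under 0.05 and the smallest adjusted p was 0.0639 to 0.752. The number of positive members was 59 with quantile normalization, 64 with median scaling and with normexp, 65 with the mean of probes, and 52 to 68 with each array left out. In an alternative added after seeing the data, 61 members lay above the median of all genes. Without a filter on dim probes that median was -0.13, and 74 members lay above it. The Mrps median was 0.070 with quantile normalization and 0.076 with normexp, and 0.060 to 0.161 with each array left out, where USP8ff_CD4Cre replicate 2 gave the lowest value and USP8ff_CD4Cre replicate 1 the highest; the Mrpl median was 0.076 to 0.142. The Mrpl median minus the Mrps median was 0.00096 with quantile normalization, 0.010 with normexp, 0.011 with the mean of probes, 0.021 with subunits by structure, and -0.019 to 0.016 with each array left out, so its sign is not settled. The cause was not tested.

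Single members changed sign as well. Mrps6 was 0.0023 with normexp. With the mean of probes Mrps5 was 0.078, Mrpl52 -0.038 and Mrps25 -0.13, by construction from their disagreeing probes. With each array left out, Mrpl12 ran between -0.41 and 0.37, Mrps12 between -0.085 and 0.39, Mrpl52 between -0.17 and 0.33, Mrps18b between -0.077 and 0.32, Mrps6 between -0.21 and 0.21, Mrpl11 between -0.10 and 0.23, Mrpl15 between -0.045 and 0.22, Mrps25 between -0.069 and 0.23, Mrps26 between -0.072 and 0.21, Mrpl47 between -0.0045 and 0.19, Mrps9 between -0.030 and 0.15, Mrpl44 between -0.031 and 0.13, Mrps35 between -0.13 and 0.097, Mrpl39 between -0.16 and 0.013, and Mrps5 between -0.083 and 0.057. Mrps18c stayed between 0.22 and 0.34 and Mrpl14 between 0.25 and 0.28. Both had the smallest unadjusted p of the members on these same arrays, so their steadiness follows from that choice and is no separate support. Pools of the same number deviated together with a correlation of 0.32 over all genes and 0.34 over members, but 2 pairs do not show a pairing. With the replicate block the medians were 0.105 for Mrpl and 0.116 for Mrps, 0 genes were called, 1338 had an unadjusted p under 0.05 (970 without the block), and the smallest adjusted p of a member was 0.495. With 2 pools a genotype, the half-width of a member's interval was mostly near 0.3 log2 units, so the interval of a difference of about 0.1 includes 0.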
